A study of Mus musculus with 48 samples.

Results

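The 6 libraries described here, of 48 in the series, are RAW264.7 mouse macrophages that received IFN-γ together with one of a pair of synthetic HLA-DR peptides. The 3 LE+IFNy libraries are replicates 1 to 3 of cells given 65-79*LE, a copy of residues 65 to 79 of the HLA-DR β chain that the lupus-risk allele DRB1*03:01 carries. The 3 PE+IFNy libraries are replicates 1 to 3 of cells given 65-79*PE, the same stretch of the chain from alleles that are associated with protection from autoimmune disease, which served as the peptide control. They were taken by their labels, as the letter-named columns of the count table. Both peptides were used at 100 µg/ml with IFN-γ at 5 ng/ml, and RNA was collected at 72 h. The other letter-named groups, with 3 libraries each, were PBS, LE, SE and PE without IFN-γ, and IFNy and SE+IFNy, where SE is the corresponding peptide of a rheumatoid arthritis-risk allele. RAW264.7 is a mouse line transformed by Abelson leukaemia virus, so every library comes from 1 line of proliferating, macrophage-like cells rather than from primary macrophages. Comparing LE+IFNy with PE+IFNy asks what differs between cells given the lupus-linked peptide and cells given a related peptide, with IFN-γ, dose and time held the same.

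IFN-γ signals through JAK1 and JAK2 to a STAT transcription factor, which switches on IRF1, the guanylate-binding proteins, the CXCR3-ligand chemokines and, through the coactivator CIITA, the MHC class II genes that present peptides to CD4 T cells. NF-κB and MAP kinase signals, from Toll-like or TNF receptors for example, add chemokines, cytokines and immediate-early transcription factors, and their strength is held back by induced inhibitors such as A20 and DUSP1. A macrophage that is activated also rewires its metabolism, its sterol synthesis and its endoplasmic reticulum, whose chaperone genes are switched on together by the unfolded protein response.

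The 6 libraries held between 22125367 and 26929356 counts. All 9 macrophage markers examined were measured, with summed levels of 9552 to 10330 CPM (counts scaled to a total of 1e6 per library) in LE+IFNy and 7698 to 7896 CPM in PE+IFNy, and 2 of them, Adgre1 (F4/80) and Itgam (CD11b), passed the test as higher in LE+IFNy. Markers of T cells, B cells, fibroblasts and epithelial cells summed to at most 0.611 CPM in any library, and all 4 epithelial markers were at 0. Single markers of 3 other cell types moved with the groups: endothelial markers summed to 1.92 to 2.40 CPM in LE+IFNy against 1.11 to 1.31 CPM in PE+IFNy (1 of 3 called higher, Kdr), neutrophil markers to 0.568 to 0.837 CPM against 0.164 to 0.452 CPM (1 of 5 called higher, Ngp), and dendritic cell markers to 1.18 to 1.75 CPM against 1.76 to 2.44 CPM (1 of 4 called lower, Zbtb46). Their part in the results was not tested. Averaged over 23 genes that IFN-γ induces, the log2 level (CPM plus 0.01) lay between 6.64 and 7.02 in the 12 letter-named libraries labelled with IFN-γ and between 1.14 and 1.73 in the 12 labelled without it. The series holds a further 24 libraries, named by HLA numbers, and in 12 of them this IFN-γ response went against the label. These were the HLA-named libraries labelled LE (7.06 to 7.10), PE (6.93 to 7.04), IFNy (1.03 to 1.66) and SE+IFNy (0.88 to 1.53). The HLA-named libraries labelled LE+IFNy (6.46 to 6.57) and PE+IFNy (6.63 to 6.72) all carried the response. It does not tell which peptide was given, so their peptide labels were not checked and are in doubt. Between these 3 and 3 libraries edgeR called 19 of 14110 genes, 11 of them shared with the calls described below. Of the 141 genes named below that were tested there, 67 had the opposite sign. The calls there included the chemokine genes Cxcl2 (0.64), Ccl3 (0.85), Ccl4 (0.84) and Ccl5 (1.57), where Ccl4 and Ccl5 differed by more than in the letter-named libraries (0.49 and 1.09) and Cxcl2 and Ccl3 by less (2.08 and 1.32). All results below rest on the letter-named libraries, and most of their calls were not made in the libraries that carry the same group names under HLA numbers. The cause was not tested.

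With IFN-γ present, the transcriptomes of RAW264.7 cells given the one or the other peptide differed at many genes. Of 12720 genes tested with edgeR's quasi-likelihood test, 2752 (21.6%) were called, meaning a Benjamini-Hochberg adjusted p under 0.05 and a change of more than 1.5-fold. Of these, 1615 (12.7% of the genes tested) were higher and 1137 (8.94%) lower in LE+IFNy. The median log2 fold change over all tested genes was −0.02, 899 called genes differed by more than 2-fold, and 94 by more than 4-fold, 76 of them higher and 18 lower with 65-79*LE. Groups without overlap were common, at 66.5% of all genes tested, so a gap between the groups at a single gene is read below only beside its test. The plot of counts by library shows genes with large changes.

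**Figure D1:**
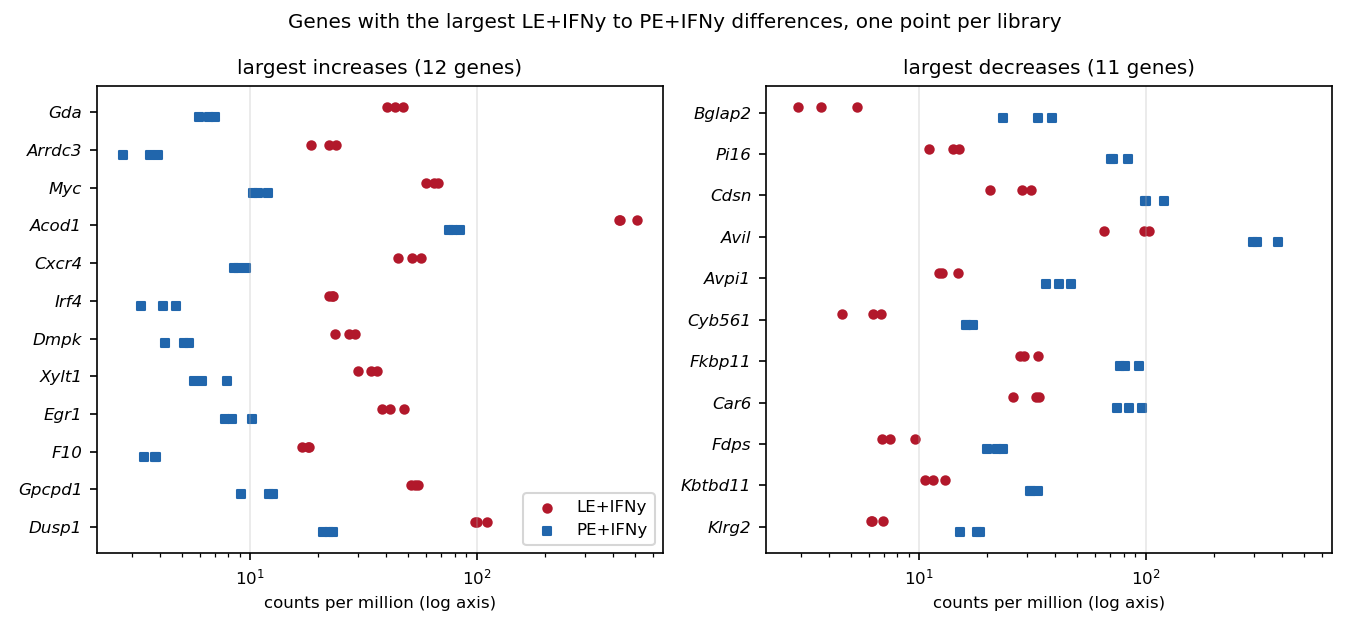
CPM in each of the 3 LE+IFNy libraries (red circles) and 3 PE+IFNy libraries (blue squares), on a log axis, for 12 genes with the largest increases and 11 with large decreases among called genes of at least 10 CPM. The groups do not overlap for any of the 23 genes, which the choice of genes required.

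Gda, which encodes guanine deaminase (chr19:21391307-21473445, GRCm38), was measured at 43.8, 40.3 and 47.4 CPM in the 3 LE+IFNy libraries and at 7.01, 6.61 and 5.95 CPM in the 3 PE+IFNy libraries. All LE+IFNy values lay above all PE+IFNy values, which the choice of genes required. The log2 fold change was 2.74 ± 0.11, adjusted p = 3.03e-11 (SE and edgeR's adjusted p here and below). Myc, the growth-promoting transcription factor (chr15:61985391-61990374), stood at 65, 59.97 and 67.8 CPM with 65-79*LE and 12, 10.9 and 10.3 CPM with 65-79*PE (2.52 ± 0.15, adjusted p = 4.8e-10). Acod1, whose product makes the antimicrobial metabolite itaconate (chr14:103046977-103056573), reached 432, 424 and 512 CPM against 75.9, 79.1 and 84.8 CPM (2.50 ± 0.14, adjusted p = 2.69e-10). Its libraries with 65-79*LE also stood apart from IFN-γ alone: LE+IFNy against IFNy gave 2.27 and PE+IFNy against IFNy −0.23 on the log2 scale.

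Irf4, an interferon regulatory factor known for its part in lymphocyte and alternatively activated macrophage programmes (chr13:30749226-30766976), gave 23.2, 22.3 and 23.1 CPM against 3.30, 4.72 and 4.11 CPM (2.48 ± 0.13, adjusted p = 1.33e-10). Cxcr4, the receptor of CXCL12 (chr1:128588199-128592293), gave 44.8, 51.9 and 56.9 CPM against 8.86, 9.64 and 8.48 CPM (2.50 ± 0.11, adjusted p = 4.41e-11). Both genes separated the groups without overlap, which the choice of genes required, and had little spread among the 3 libraries of a group. The other members of the leading 12 were Arrdc3 (2.65), Dmpk (2.43), Xylt1 (2.33), Egr1 (2.27), the coagulation factor gene F10 (2.26), Gpcpd1 (2.22) and Dusp1 (2.21).

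The largest decrease was that of Bglap2, an osteocalcin gene (chr3:88377736-88378699), at 3.69, 5.35 and 2.93 CPM in LE+IFNy and 23.5, 33.5 and 38.5 CPM in PE+IFNy (−2.998 ± 0.23, adjusted p = 9.83e-09). Bglap2 has near-identical neighbouring copies, so reads that fit several of them were not counted and its level is uncertain. Pi16, a peptidase inhibitor gene (chr17:29317680-29330593), followed at 14.1, 15 and 11 CPM against 71.5, 70.3 and 83.4 CPM (−2.50 ± 0.14, adjusted p = 2.38e-10). Avil, which encodes the actin-binding protein advillin (chr10:127000709-127020994), was at 98.2, 104 and 65.9 CPM against 297, 311 and 385 CPM (−1.90 ± 0.18, adjusted p = 9.13e-08). None of the 3 was called for PE+IFNy against IFNy, where the log2 fold changes were 0.28, 0.39 and 0.16. Others among the largest decreases were Cdsn (−2.01), Avpi1 (−1.66), Cyb561 (−1.50), Fkbp11 (−1.49), Car6 (−1.47), Fdps (−1.46), Kbtbd11 (−1.45) and Klrg2 (−1.44). Fdps encodes an enzyme of sterol synthesis, and Fkbp11 a folding enzyme of the secretory pathway.

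Gene lists for the tissue and treatment placed these changes in pathways, and the plot by list gives every tested member. Counts of called members in any list stand beside the shares over all genes tested, 12.7% higher and 8.94% lower. Among secreted chemoattractants, 14 of 15 tested chemokine genes rose with 65-79*LE and none fell, with a median log2 fold change of 1.32 beside −0.02 over all genes (0 had a value below 0 at an unadjusted p under 0.05, and DESeq2 called 0 lower). The chemokine that did not pass the fold limit, Ccl4, stood at 0.49.

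**Figure D2:**
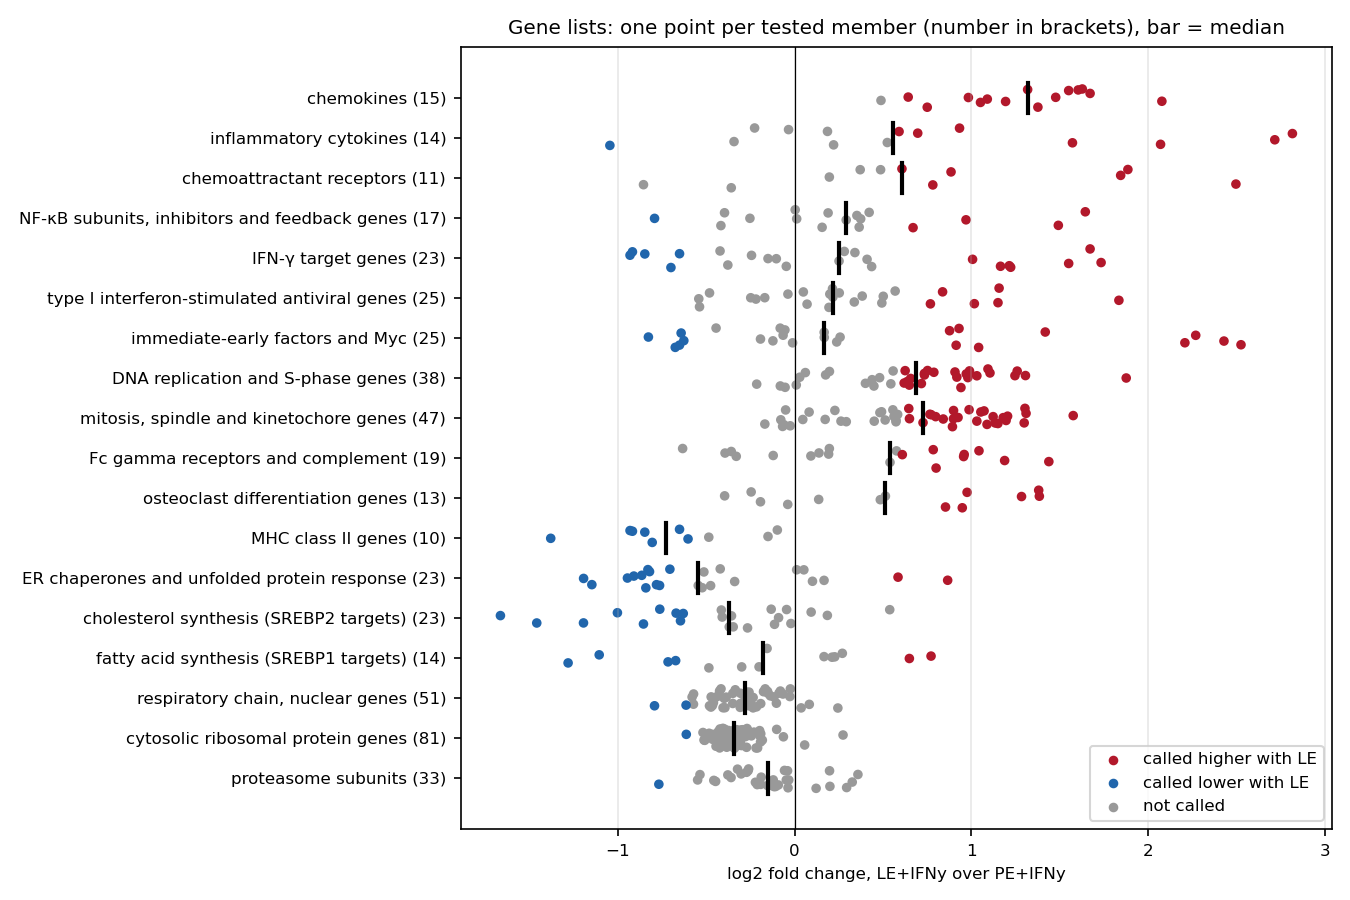
Log2 fold change of LE+IFNy over PE+IFNy for every tested member of 18 gene lists, with 1 point per gene, red where called higher, blue where called lower and grey where not called, and the median as a black bar. Chemokine, DNA replication and mitosis points lie almost wholly to the right of 0, and MHC class II points wholly to the left.

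Cxcl2, a neutrophil attractant, was the chemokine with the largest change, at 168, 164 and 192 CPM in LE+IFNy against 42.3, 42.7 and 38 CPM in PE+IFNy (2.08 ± 0.11, adjusted p = 2.38e-10). Its promoter window, shown because Cxcl2 leads the list, holds the κB-type letters GGG, any 2 bases, TTTCC at 2 places, marked in capitals (chr5:90903649-90903948, plus strand, RefSeq, GRCm38.p6).
Cxcl2: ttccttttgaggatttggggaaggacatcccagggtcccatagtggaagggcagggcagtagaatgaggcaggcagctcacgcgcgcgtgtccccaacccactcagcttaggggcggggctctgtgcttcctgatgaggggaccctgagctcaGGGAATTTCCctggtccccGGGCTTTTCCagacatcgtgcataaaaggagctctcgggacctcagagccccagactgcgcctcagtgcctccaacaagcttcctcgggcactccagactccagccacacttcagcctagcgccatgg
The windows run from 250 bases before to 50 bases after the annotated start, and both strands were searched. The letters were found in 2 of the 9 chemokine promoters matched and in 1.62% of all 27025 promoters.

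The CXCR3 ligands, which draw T cells and are classical IFN-γ targets, rose as well. Cxcl9 was at 91.8, 91.6 and 108 CPM against 38.9, 32.6 and 27.2 CPM (1.55 ± 0.20, adjusted p = 2.85e-06), Cxcl10 at 11.9, 11.5 and 18.8 CPM against 4.79, 4.31 and 4.03 CPM (1.67 ± 0.18, adjusted p = 5.18e-07) and Cxcl11 at 11.6, 11.6 and 13.2 CPM against 3.53, 3.69 and 4.63 CPM (1.60 ± 0.19, adjusted p = 1.06e-06). For Cxcl10, replicate 3 of LE+IFNy stood above the other two, but all LE+IFNy libraries were above all PE+IFNy libraries. Ccl7, a monocyte attractant, gave 21.9, 22.5 and 22.2 CPM against 7.32, 8.66 and 5.40 CPM (1.63 ± 0.14, adjusted p = 4.11e-08). Ccl5 (RANTES) differed less, at 32, 32.2 and 30.4 CPM against 14.5, 15 and 14.6 CPM (1.09 ± 0.081, adjusted p = 7.03e-09), and was one of the few genes that PE+IFNy itself raised over IFN-γ alone (0.88, beside 1.97 for LE+IFNy).

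Of 11 tested chemoattractant receptors 6 rose (1 had a value below 0 at an unadjusted p under 0.05, and DESeq2 called 4 higher and 0 lower). A fit of the 6 libraries alone called 6 higher and 1 lower. Without replicate number 1 the calls were 3 higher and 0 lower, and without replicate number 2 they were 3 and 1. Besides Cxcr4 the 6 receptors that rose in the main test included Ccrl2, a receptor that binds chemerin, at 83, 77.6 and 89.9 CPM against 20.9, 21.7 and 24.5 CPM (1.88 ± 0.088, adjusted p = 4.41e-11). Offsets for transcript length and GC content, described below, left 3 of these 6 calls.

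Among cytokine genes 7 of 14 rose, at a median of 0.56, and 1, Il23a, fell (−1.04). Il1rn, the secreted antagonist of the IL-1 receptor, went from 129.7, 118 and 103 CPM in PE+IFNy to 474, 474 and 533 CPM in LE+IFNy (2.07 ± 0.14, adjusted p = 2.53e-09). Tnf stood at 126, 114 and 135 CPM against 66.2, 61.6 and 66.4 CPM (0.93 ± 0.076, adjusted p = 1.98e-08). Il1b was called (1.57 ± 0.48, adjusted p = 0.00905, and 1.24 without PE+IFNy replicate 2, where the call was lost) from few counts, at 0.799, 1.15 and 0.917 CPM against 0.542, 0.164 and 0.257 CPM, and Il6 did not differ beyond the spread (3.31, 4.57 and 3.49 CPM against 3.34, 3.82 and 2.53 CPM, 0.22 ± 0.18, adjusted p = 0.31). Nos2, the inducible nitric oxide synthase, rose from 269, 238 and 228 CPM to 579, 513 and 594 CPM (1.18 ± 0.080, adjusted p = 2.54e-09). Its neighbours in arginine metabolism moved both ways: Odc1, the first enzyme of polyamine synthesis, rose (1.03 ± 0.092, adjusted p = 5.24e-08), and Spr, which makes the nitric oxide synthase cofactor tetrahydrobiopterin, fell (−1.005 ± 0.083, adjusted p = 2.11e-08).

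In the NF-κB list 4 of 17 members rose and 1 fell, with a median of 0.29. Nfkbiz, which encodes the nuclear cofactor IκBζ, was at 47.9, 44.6 and 49.8 CPM against 14.3, 17.4 and 13.3 CPM (1.64 ± 0.13, adjusted p = 1.38e-08), and Tnfaip3, which encodes the feedback inhibitor A20, at 27, 25.1 and 29.8 CPM against 9.27, 11.1 and 8.48 CPM (1.49 ± 0.12, adjusted p = 1.57e-08). Traf1, a TNF receptor adaptor, rose by less (0.67 ± 0.093, adjusted p = 8.17e-06), as did the subunit gene Rel (0.97 ± 0.13, adjusted p = 5.14e-06, and 0.47 and not called with the offsets). The inhibitor gene Nfkbie fell (−0.79 ± 0.15, adjusted p = 0.000218). Relb, a subunit of the non-canonical pathway, stood at 0.37, below the fold limit. Of 20 genes of the TNF and TNF receptor superfamily 4 rose, Tnf, Tnfrsf9, Tnfrsf1b (0.84) and Tnfrsf26 (0.79), and 2 fell, Tnfrsf4 (−0.93) and Tnfsf9 (−0.67). Neither decrease was called with the offsets (−0.54 and −0.35), and that of Tnfrsf4 was also lost at −0.89 without LE+IFNy replicate 1, −0.96 without LE+IFNy replicate 2, −0.92 without LE+IFNy replicate 3, −0.95 without PE+IFNy replicate 2 and −0.81 without PE+IFNy replicate 3. Tnfrsf9 (4-1BB), a costimulatory receptor, led them at 14, 11 and 11.1 CPM against 3.30, 2.91 and 3.47 CPM (1.89 ± 0.16, adjusted p = 3.75e-08).

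Immediate-early factors split: 9 of 25 rose (median 0.17) and 5 fell. Egr1, a zinc-finger factor induced by ERK signalling, was at 41.7, 38.3 and 47.7 CPM against 10.2, 8.33 and 7.80 CPM (2.27 ± 0.15, adjusted p = 1.29e-09), and Dusp1, the phosphatase that switches MAP kinases off (chr17:26505590-26562128), at 101, 98.1 and 111 CPM against 23.2, 22.4 and 21 CPM (2.21 ± 0.10, adjusted p = 4.41e-11). The genes that fell were Klf2 (−0.83), Nr4a1 (−0.67), Ier2 (−0.65), Mycn (−0.64) and Nr4a2 (−0.63), and with the length and GC offsets 1 of these calls, Nr4a2, was left beside 9 increases. The call of Nr4a2 was lost at −0.47 without PE+IFNy replicate 1 and −0.56 without PE+IFNy replicate 2, and that of Nr4a1 at −0.68 without LE+IFNy replicate 1, −0.58 without LE+IFNy replicate 2 and −0.40 without PE+IFNy replicate 3. Among stress-responsive genes, Plk2, a polo-like kinase, rose from 113, 108 and 97.6 CPM to 379.7, 348 and 435 CPM (1.86 ± 0.11, adjusted p = 5.1e-10), and Gadd45b, a regulator of stress kinases, from 38.6, 36 and 35.5 CPM to 119.8, 125 and 156 CPM (1.85 ± 0.10, adjusted p = 2.38e-10). Plk2 belongs to a list of p53 targets, where 4 of 20 rose and 0 fell, at a median of 0.004. At an unadjusted p under 0.05 in edgeR's test, 7 of its members were above 0 and 7 below. With the offsets 2 rose.

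JAK-STAT genes gave 5 increases and 1 decrease of 20, with a median of 0.25. Pim1, a survival kinase induced by STAT factors, stood at 118, 106 and 125 CPM against 33.4, 32.9 and 28.8 CPM (1.87 ± 0.084, adjusted p = 4.41e-11). Jak1 itself rose from 163, 168 and 138 CPM to 375, 326 and 366 CPM (1.17 ± 0.085, adjusted p = 5.04e-09). The feedback inhibitors diverged, with Socs3 higher (0.62 ± 0.12, adjusted p = 0.000196) and Socs1, which restrains IFN-γ signalling, lower (−0.70 ± 0.16, adjusted p = 0.000897, and −0.45 and not called with the offsets). The call of Socs3 was lost at 0.58 without LE+IFNy replicate 3 and 0.53 without PE+IFNy replicate 1, and that of Socs1 at −0.49 without PE+IFNy replicate 3. The remaining increases were those of Cish (1.07), another SOCS-family inhibitor, and the phosphatase gene Ptpn2 (0.59), neither of them called with the offsets (1.04 and 0.41). Cish lost its call without LE+IFNy replicate 1 or 3 or any 1 PE+IFNy replicate (0.94 to 1.25), and Ptpn2 without LE+IFNy replicate 2 or 3 or PE+IFNy replicate 1 or 3 (0.54 to 0.58).

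Among the 23 IFN-γ target genes 7 rose and 5 fell, and the median was 0.25. Gbp2, a guanylate-binding protein of cell-autonomous defence, was at 395, 381 and 439 CPM with 65-79*LE against 126, 121 and 116 CPM with 65-79*PE (1.73 ± 0.076, adjusted p = 4.35e-11). Gbp2 belongs to a family of close paralogs, and reads that fit several members were not counted. Cd274 (PD-L1), the checkpoint ligand, rose from 95.1, 100.2 and 92.5 CPM to 223, 209 and 245 CPM (1.22 ± 0.073, adjusted p = 5.98e-10). The remaining risers were Gbp3 (1.165), Gbp5 (1.01), Gbp7 (1.21), Cxcl9 and Cxcl10. With the offsets all 7 increases and 1 of the 5 decreases, H2-Aa, were called. Irf1, an early IFN-γ target, was at 117, 115 and 129 CPM against 151, 152 and 176 CPM and below the fold limit (−0.42).

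The genes of this list that fell were Socs1 and 4 genes of MHC class II presentation. In the MHC class II list, 7 of 10 genes fell with 65-79*LE, with a median log2 fold change of −0.73, and none rose (0 had a value above 0 at an unadjusted p under 0.05, and DESeq2 called 0 higher). H2-Aa, the α chain of I-A, went from 1317, 1202 and 1187 CPM in PE+IFNy to 601, 651 and 708 CPM in LE+IFNy (−0.93 ± 0.10, adjusted p = 5.7e-07). Its partner H2-Ab1 was at 405, 441 and 485 CPM against 889, 825 and 779 CPM (−0.92 ± 0.097, adjusted p = 3.92e-07), H2-Eb1 at 729.9, 766 and 863 CPM against 1497, 1398 and 1314 CPM (−0.85 ± 0.094, adjusted p = 6.26e-07), and the invariant chain gene Cd74 at 3845, 3975 and 4067 CPM against 6230.0, 6006 and 6264 CPM (−0.65 ± 0.055, adjusted p = 3.02e-08). In each of the 4, every LE+IFNy library was below every PE+IFNy library. The IFN-γ-alone libraries lay between: the mean of H2-Aa was 653 CPM in LE+IFNy, 898 CPM in IFNy and 1235 CPM in PE+IFNy. Measured against IFN-γ alone, 0 of the 10 were called lower in LE+IFNy (5 were below 0 at an unadjusted p under 0.05 in edgeR's test) and 2 higher in PE+IFNy. With offsets for length and GC content 2 of the 7 calls were left, H2-Ob and H2-Aa, and the median was −0.34.

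Of 25 antiviral genes that type I interferon induces, 6 rose (5 had a value below 0 at an unadjusted p under 0.05, and DESeq2 called 0 lower) and the median was 0.22. Rsad2 (viperin) was at 60.5, 56.9 and 69.9 CPM against 18.3, 18 and 15.7 CPM (1.83 ± 0.10, adjusted p = 2.38e-10), and Irf7, the factor that amplifies type I interferon output, at 298, 306 and 322 CPM against 155, 135 and 124 CPM (1.15 ± 0.088, adjusted p = 9.99e-09). Ifit1 (1.157 ± 0.16, adjusted p = 6.19e-06) and Zbp1, a nucleic acid sensor (0.84 ± 0.077, adjusted p = 7.44e-08), also rose. Ifi44 and Ifi44l did not pass the limits, at 0.07 and −0.22, and Ifi44 turned to −0.25 with the offsets. Promoter windows of Rsad2 and Cxcl10 are shown because both are interferon-induced and rose. The letters GAAA, any 2 bases, GAAA, of the interferon-stimulated response element, are in capitals (Rsad2, chr12:26456403-26456702, minus strand; Cxcl10, chr5:92348840-92349139, minus strand).
Rsad2: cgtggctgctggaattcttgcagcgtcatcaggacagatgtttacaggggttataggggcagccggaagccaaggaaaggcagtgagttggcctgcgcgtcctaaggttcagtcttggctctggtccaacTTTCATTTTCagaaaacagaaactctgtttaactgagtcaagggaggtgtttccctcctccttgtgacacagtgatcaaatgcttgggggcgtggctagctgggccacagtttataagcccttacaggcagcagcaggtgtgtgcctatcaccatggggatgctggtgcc
Cxcl10: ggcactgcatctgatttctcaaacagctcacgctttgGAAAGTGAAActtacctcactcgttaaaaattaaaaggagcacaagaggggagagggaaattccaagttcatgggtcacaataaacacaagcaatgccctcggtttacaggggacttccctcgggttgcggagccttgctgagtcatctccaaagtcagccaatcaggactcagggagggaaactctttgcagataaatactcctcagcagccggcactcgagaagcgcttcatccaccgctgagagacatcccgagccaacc
These letters were present in 9 of 18 matched promoters of the IFN-γ list and in 9 of 19 of the antiviral list, beside 3.49% of all promoters. In the IFN-γ list they occurred in 5 of 7 promoters of genes that rose, 1 of 3 of genes that fell and 3 of 8 of genes not called. In the antiviral list they occurred in 2 of 4 promoters of genes that rose and 7 of 15 of genes not called.

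Proliferation genes rose in large number. Of 38 DNA replication and S-phase genes 24 rose with 65-79*LE (median 0.69) and none fell (1 had a value below 0 at an unadjusted p under 0.05, and DESeq2 called 0 lower), and 26 of 47 mitosis genes rose (median 0.73) and none fell (0 had a value below 0 at an unadjusted p under 0.05, and DESeq2 called 0 lower). Lig1, the DNA ligase of replication, was at 116, 113 and 123 CPM against 49.9, 45.7 and 45.4 CPM (1.31 ± 0.061, adjusted p = 4.92e-11). The polymerase subunit gene Pola1 gave 32.1, 30.6 and 33.4 CPM against 13.6, 14.3 and 11.9 CPM (1.26 ± 0.094, adjusted p = 7.03e-09). Mcm4, of the replicative helicase, was at 1.10.

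In the mitotic list the spindle checkpoint kinase gene Bub1 led, at 73.1, 75.5 and 83.3 CPM against 27.4, 26.9 and 22.8 CPM (1.58 ± 0.14, adjusted p = 4.9e-08). Mki67, the proliferation marker Ki-67, stood at 445, 400.5 and 508 CPM against 209.8, 182 and 153 CPM (1.30 ± 0.14, adjusted p = 4.06e-07), with the PE+IFNy libraries spread over 153 to 209.8 CPM. Kif15, a spindle motor, and Ttk, the checkpoint kinase MPS1, were at 1.31 and 1.30. In IFN-γ alone the mean of Mki67 was 224 CPM, and LE+IFNy against IFNy gave 1.03 ± 0.14, adjusted p = 7.82e-06, while PE+IFNy against IFNy gave −0.28 ± 0.14, adjusted p = 0.202, not called. With offsets for length and GC content, 26 replication genes and 21 mitosis genes were called higher and 1 mitosis gene, Mad2l1 (−0.64), lower. The replication-dependent histone genes, whose transcripts lack a poly(A) tail and are poorly caught by the library type, passed the count filter for 11 of 68 members, no such member was called higher (0 had a value above 0 at an unadjusted p under 0.05, and DESeq2 called 0 higher) and 1, Hist1h1c (−0.94), was lower. With the offsets Hist1h4i (0.62) was called higher, and the median of the list went from −0.17 to 0.18. Bulk libraries cannot tell more cycling cells from more of these transcripts per cell.

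The window of Ttk is shown for the cell-cycle homology letters TTTGAA, in capitals (chr9:83834439-83834738, plus strand).
Ttk: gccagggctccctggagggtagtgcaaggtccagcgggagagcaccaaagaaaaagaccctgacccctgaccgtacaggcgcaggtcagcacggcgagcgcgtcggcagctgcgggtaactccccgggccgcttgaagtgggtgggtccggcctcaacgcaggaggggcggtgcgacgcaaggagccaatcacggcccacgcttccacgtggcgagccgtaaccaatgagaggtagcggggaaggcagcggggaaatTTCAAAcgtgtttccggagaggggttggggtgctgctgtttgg
TTTGAA was found in 31 of the 41 matched mitosis promoters and in 18.1% of all promoters. Within the list it was present for 19 of 24 members that rose and 12 of 17 that were not called.

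In the endoplasmic reticulum, 11 of 23 chaperone and unfolded protein response genes fell with 65-79*LE and 2 rose, with a median of −0.55. Creld2, a secreted ER-stress protein, went from 1140.2, 1124 and 1184 CPM in PE+IFNy to 523, 538 and 461 CPM in LE+IFNy (−1.19 ± 0.064, adjusted p = 2.38e-10). Sdf2l1, a cofactor of the chaperone BiP, was at 419, 464 and 391 CPM against 911, 925 and 959 CPM (−1.15 ± 0.066, adjusted p = 3.61e-10), Manf at 623, 672 and 587 CPM against 1185, 1176 and 1231 CPM (−0.95 ± 0.062, adjusted p = 1.74e-09) and Dnajb11 at 383, 378 and 349 CPM against 675, 690.0 and 700.1 CPM (−0.91 ± 0.052, adjusted p = 3.22e-10). Calr, which encodes calreticulin, a calcium-binding chaperone, was at 3144, 3103 and 2858 CPM against 5365, 5334 and 5722 CPM (−0.86 ± 0.061, adjusted p = 4.16e-09). Within each group these genes varied little, and no library of LE+IFNy reached the lowest PE+IFNy library.

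Hspa5 (BiP) itself, the main chaperone of the compartment, was at 10469.7, 10564 and 9382 CPM against 14549.6, 14066 and 13282 CPM, a difference of −0.47 that stayed below the fold limit in the main test and passed it with the offsets (−0.61). Ddit3 (CHOP) likewise stayed below the limit (−0.52). The members that rose were Ern1, which encodes the stress sensor IRE1α (159, 142 and 138 CPM against 84.9, 84.8 and 69.3 CPM, 0.87 ± 0.085, adjusted p = 1.55e-07), and Dnajb9 (0.59 ± 0.075, adjusted p = 3.23e-06, and 0.45 and not called with the offsets; the call was also lost at 0.57 without LE+IFNy replicate 2, 0.57 without PE+IFNy replicate 1 and 0.54 without PE+IFNy replicate 3). Both were named after their values were seen. Against IFN-γ alone the list had 14 decreases and 1 increase for LE+IFNy, and for PE+IFNy 0 of either direction (11 members were below 0 and 0 above 0 at an unadjusted p under 0.05 in edgeR's test). Offsets for length and GC content gave 13 decreases and 1 increase.

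Promoters of Creld2 and Calr are printed because both fell and hold a known element of this pathway's promoters. On either strand, the ER stress response element, searched as CCAAT, any 9 bases and CCACG, is in capitals (Creld2, chr15:88819396-88819695, plus strand; Calr, chr8:84846882-84847181, minus strand).
Creld2: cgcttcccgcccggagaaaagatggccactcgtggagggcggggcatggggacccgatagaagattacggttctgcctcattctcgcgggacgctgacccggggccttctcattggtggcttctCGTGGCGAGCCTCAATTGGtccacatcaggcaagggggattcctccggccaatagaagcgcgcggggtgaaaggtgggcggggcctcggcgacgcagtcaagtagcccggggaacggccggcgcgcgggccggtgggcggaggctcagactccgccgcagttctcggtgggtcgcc
Calr: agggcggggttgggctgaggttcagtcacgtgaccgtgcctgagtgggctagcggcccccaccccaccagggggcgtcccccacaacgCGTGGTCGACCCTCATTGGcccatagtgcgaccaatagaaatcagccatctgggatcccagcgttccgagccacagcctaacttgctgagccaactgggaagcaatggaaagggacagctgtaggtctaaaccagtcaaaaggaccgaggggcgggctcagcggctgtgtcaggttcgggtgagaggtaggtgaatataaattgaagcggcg
The element was found in 8 of the 20 matched promoters of the list and in 35 of all 27025 promoters (0.13%). It was present for 5 of 9 members that fell (Calr, Creld2, Dnajc3, Hsp90b1 and Pdia6), for 3 of 9 that were not called, and for 0 of 2 that rose. These are matches of letters and not measured binding.

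Sterol genes also fell. Of 23 genes of cholesterol synthesis and uptake 9 were lower with 65-79*LE and none higher (median −0.37; 1 had a value above 0 at an unadjusted p under 0.05, and DESeq2 called 0 higher). Fdps, farnesyl diphosphate synthase, was at 6.89, 9.62 and 7.47 CPM against 19.9, 22.1 and 23.4 CPM (−1.46 ± 0.14, adjusted p = 1.34e-07). Mvd, a decarboxylase of the mevalonate pathway, was at 42, 42.9 and 41.9 CPM against 80.5, 84.1 and 86.9 CPM (−1.002 ± 0.055, adjusted p = 2.43e-10). Insig1, which retains the SREBP activator in the endoplasmic reticulum, stood at 0.54 and was not called, and with the offsets it was called higher (0.60).

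In fatty acid synthesis 4 of 14 genes fell and 2 rose (median −0.18). The desaturase gene Scd2 was at 143, 137 and 132 CPM against 323, 346 and 324 CPM (−1.28 ± 0.066, adjusted p = 1.4e-10) and Scd1 at 24.2, 22.9 and 19.7 CPM against 49.8, 49.4 and 43.7 CPM (−1.10 ± 0.088, adjusted p = 1.57e-08), with the elongase gene Elovl6 (−0.72 ± 0.12, adjusted p = 5.95e-05) and the fatty acid synthase gene Fasn (−0.67) also lower. Acss2, an acetyl-CoA synthetase, was higher (0.77 ± 0.10, adjusted p = 3.62e-06), as was Acsl3 (0.65, and 0.41 and not called with the offsets). LXR targets were divided, with 2 of 11 higher and 2 lower. Abca1, the cholesterol efflux pump, was at 17.5, 12.2 and 15.9 CPM against 3.98, 6.07 and 2.66 CPM (1.82 ± 0.25, adjusted p = 7.58e-06) and Nr1h3, which encodes LXRα, at 1.17, while the phospholipid enzyme gene Lpcat3 fell (−0.76, and −0.55 and not called with the offsets), as did Apoe, apolipoprotein E (−1.19).

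Genes of phagocytosis and complement rose in 8 of 19 cases (3 had a value below 0 at an unadjusted p under 0.05, and DESeq2 called 0 lower). Itgax (CD11c), the αX chain of complement receptor 4, was at 33.8, 34.6 and 40.1 CPM against 15.7, 12.7 and 11.4 CPM (1.44 ± 0.12, adjusted p = 3.25e-08), and Itgam, the αM chain of complement receptor 3, at 499, 463 and 518 CPM against 248, 243 and 222 CPM (1.04 ± 0.065, adjusted p = 8.59e-10). C3, the central complement protein, was at 326, 313 and 339 CPM against 153, 138 and 135 CPM (1.19 ± 0.072, adjusted p = 6.61e-10), and C1qa, which starts the classical pathway, rose (9.40, 10.4 and 11.9 CPM against 6.46, 5.54 and 4.15 CPM, 0.96 ± 0.16, adjusted p = 4.23e-05). Cybb, the catalytic subunit of the phagocyte oxidase, was at 1394, 1229 and 1462 CPM against 672, 687 and 528 CPM (1.10 ± 0.11, adjusted p = 1.64e-07). It was the 1 gene called of 6 tested in a separate list of oxidase subunits, whose median was 0.02. That count is not read as a result about the oxidase. RAW264.7 cells can turn into osteoclasts, and 6 of 13 osteoclast genes rose (1 had a value below 0 at an unadjusted p under 0.05, and DESeq2 called 0 lower), among them Car2, carbonic anhydrase II (1.38 ± 0.094, adjusted p = 2.54e-09), the protease gene Mmp9 (1.28 ± 0.13, adjusted p = 3.21e-07) and the proton pump subunit gene Atp6v0d2 (0.95 ± 0.089, adjusted p = 1.01e-07). Nfatc1, the master regulator of that fate, was at −0.04, not called.

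Among death and stress genes few passed the limits, beside 12.7% of all genes tested called higher and 8.94% called lower. The small counts here are not read as results about these lists. In the necroptosis and death list 2 of 24 members rose (6 had a value below 0 at an unadjusted p under 0.05, and DESeq2 called 0 lower), Zbp1 and Bcl2l11 (0.72, and 0.55 and not called with the offsets), while the necroptosis kinase gene Ripk1 (0.51) and its effector gene Mlkl (0.41) stayed below the fold limit. Sqstm1 (p62), the autophagy receptor, was at 5027, 5013 and 4899 CPM against 4483, 4306 and 4303 CPM (0.18), and Dnase1l3, a nuclease linked to lupus, at 5.06, 5.20 and 5.98 CPM against 6.51, 6.65 and 6.30 CPM (−0.28 ± 0.13, adjusted p = 0.0717). Atf3, a stress-induced repressor, rose (0.90 ± 0.10, adjusted p = 8.86e-07), as did the cystine transporter gene Slc7a11 (1.21 ± 0.075, adjusted p = 8.49e-10) and Tlr9, the sensor of unmethylated DNA (0.81 ± 0.10, adjusted p = 3.23e-06). Atf3 and Slc7a11 belong to the ATF4 and CHOP stress list, where 2 of 22 tested members rose and 2 fell, at a median of −0.145. At an unadjusted p under 0.05 in edgeR's test, 12 of its members were below 0 and 5 above 0. With the offsets 3 rose and 1 fell, at a median of 0.097. In the list of lupus-linked nucleases and nucleic acid sensors Tlr9 was the 1 gene of 15 that rose, and Tmem173 (STING) the 1 that fell (−0.61; −0.43 with the offsets and −0.58 without PE+IFNy replicate 3, where it was not called). In glycolysis 2 of 21 genes rose, the hexokinase gene Hk2 (0.74) and Pfkfb3 (0.86), which sets the pace of the pathway. Lrp1, the scavenger receptor that pairs with calreticulin at the cell surface, was at 739.5, 586 and 653 CPM against 439.6, 392 and 379 CPM (0.70 ± 0.086, adjusted p = 2.19e-06, and 0.35 and not called with the offsets).

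Genes of basic cell machinery had medians below 0, while few members passed the limits. The median log2 fold change was −0.34 over 81 cytosolic ribosomal protein genes, of which 1 fell, and −0.28 over 51 nuclear genes of the respiratory chain, of which 2 fell, Uqcrq (−0.61) and Atp5g1 (−0.79). Against IFN-γ alone the ribosomal median was −0.08 for LE+IFNy and 0.26 for PE+IFNy, and that of the respiratory chain −0.12 and 0.18. Between LE and PE without IFN-γ the medians were −0.21 for the ribosomal list and −0.125 for the respiratory chain. No member of either list was called in these comparisons. Among 33 proteasome subunits 1 fell, Psmb5 (−0.77), at a median of −0.15. Without LE+IFNy replicate 3 or PE+IFNy replicate 1 the respiratory chain had 5 and 5 decreases, and without PE+IFNy replicate 3 it had 1. The ribosomal list had 0 without any 1 LE+IFNy replicate or without PE+IFNy replicate 3, and 2 without PE+IFNy replicate 1, beside 75 members below 0 at an unadjusted p under 0.05 in edgeR's test of all 6 libraries and 0 called lower by DESeq2. Of the 3 named here, Atp5g1 alone was still called with the offsets, and the call of Uqcrq was also lost at −0.56 without PE+IFNy replicate 3. Many ribosomal protein genes have processed pseudogenes that share their reads, so their levels are uncertain. Both lists hold short transcripts, and the difference between the groups followed transcript length and base composition: across 12556 genes the log2 fold change had a Spearman correlation of 0.36 with transcript length and of −0.39 with GC content, given as a description. From the shortest to the longest of 4 equal groups of genes, the median log2 fold change went from −0.23 to 0.25. Centred on the mean of the 6 libraries, each LE+IFNy library correlated positively with length (0.286 to 0.426) and each PE+IFNy library negatively (−0.400 to −0.261). Whether this trend is part of the response or of the libraries cannot be told apart, because it follows the groups. With offsets that remove each library's smooth trend on length and GC content, 2017 genes were called, 1508 of them also called without the offsets, and the median became −0.02 for ribosomal protein genes and −0.09 for the respiratory chain.

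**Figure D3:**
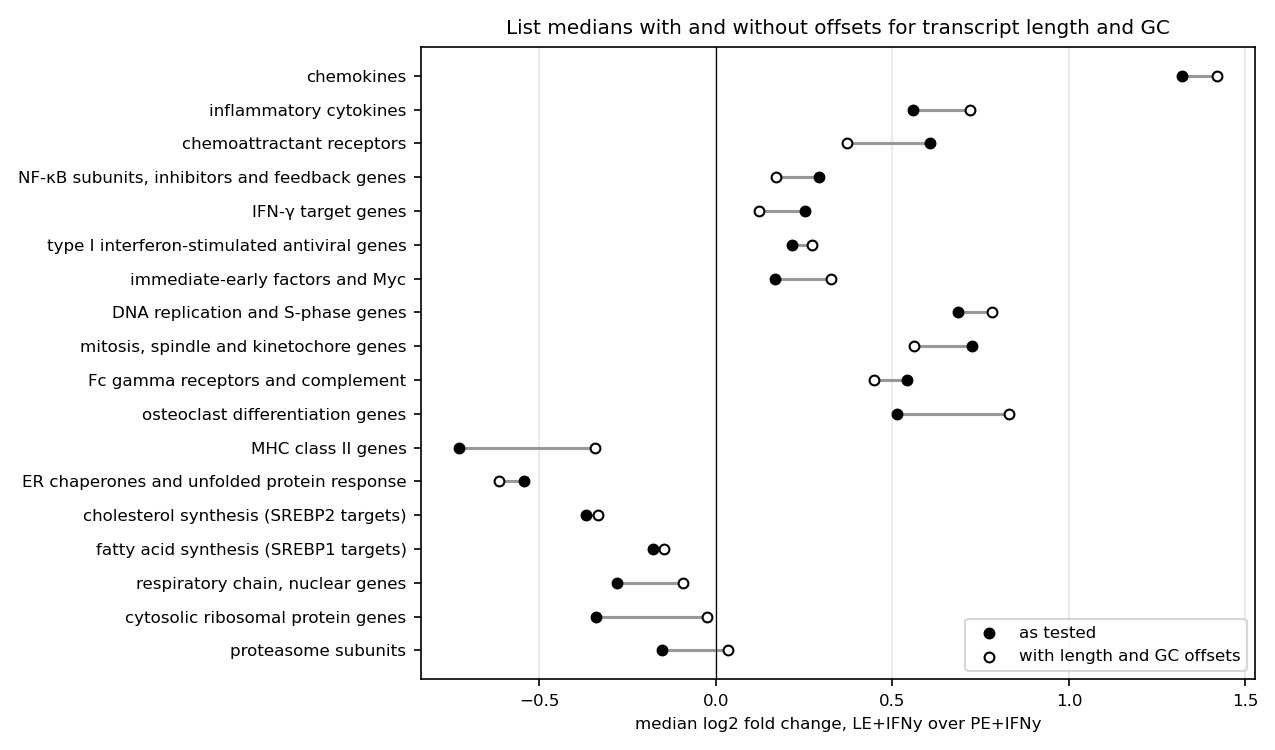
Median log2 fold change of LE+IFNy over PE+IFNy for the same 18 lists, as tested (filled circles) and with offsets for transcript length and GC content (open circles). Chemokine, replication and ER chaperone medians stay on their side of 0, the MHC class II median moves from −0.73 to −0.34, and the proteasome median crosses 0, from −0.15 to 0.04.

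Set against IFN-γ alone, with the same 3 IFNy libraries in both comparisons, LE+IFNy had 1972 called genes (15.5% of those tested), 1218 (9.58%) higher and 754 (5.93%) lower, and PE+IFNy 80 (0.629%), 57 higher and 23 lower. For Irf4 LE+IFNy against IFNy gave 2.28 and PE+IFNy against IFNy −0.20, for Cxcl2 the values were 2.20 and 0.13, for Creld2 −1.25 and −0.06, and for Scd2 −1.59 and −0.31. For Gda PE+IFNy was also called, in the other direction (2.13 and −0.61), and for Lcn2, lipocalin 2, PE+IFNy rose over IFN-γ alone and LE+IFNy was not called (0.62 and −0.21).

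**Figure D4:**
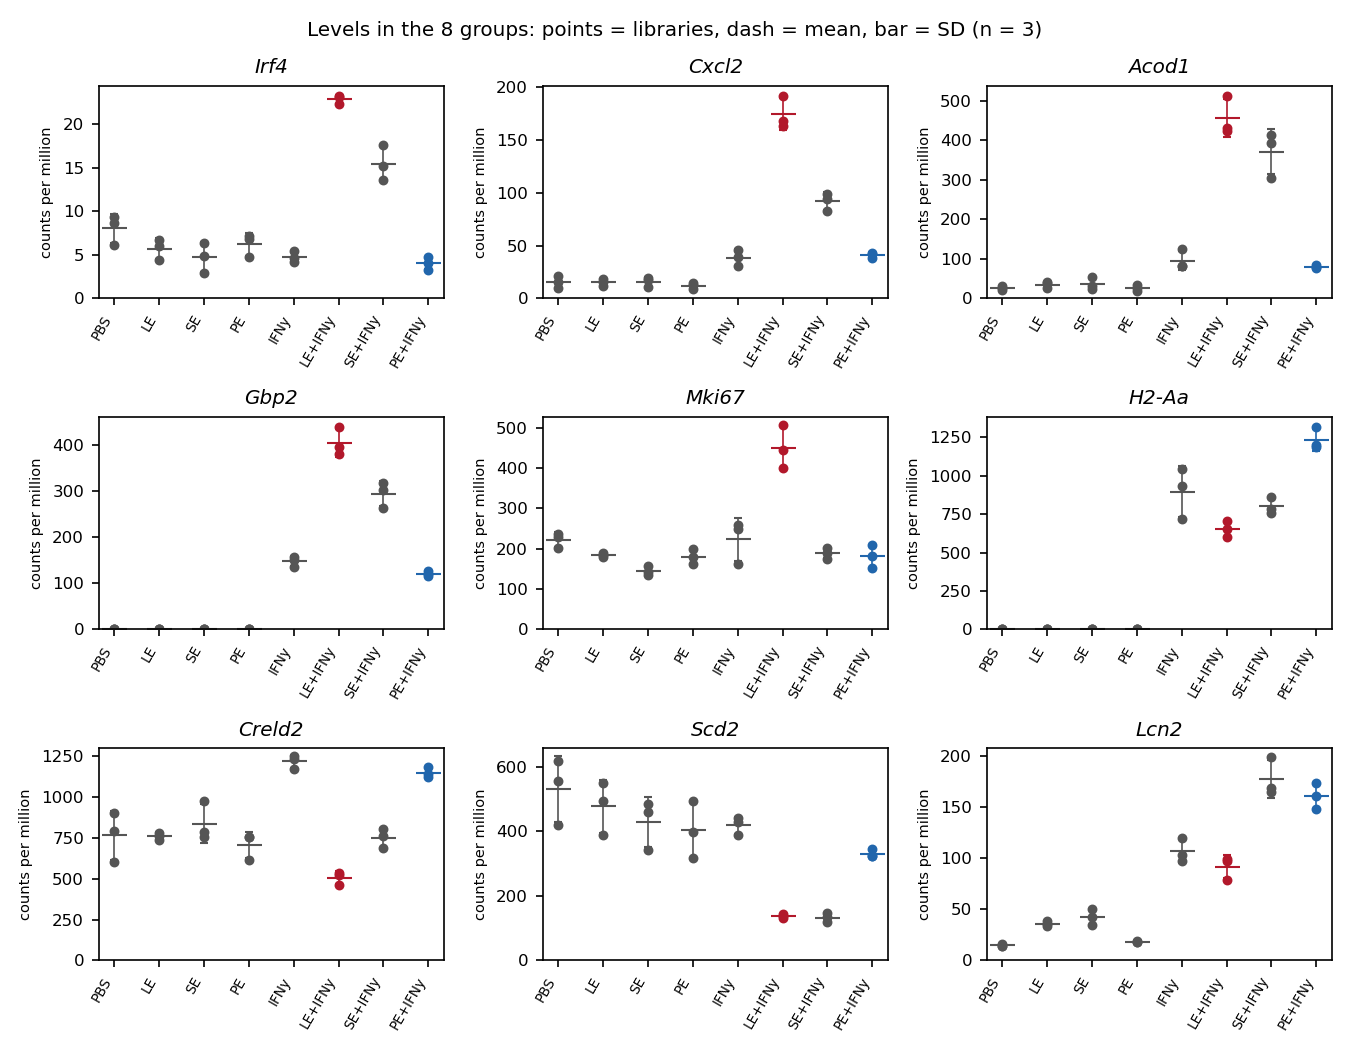
CPM of 9 genes in all 8 letter-named groups, on linear axes that start at 0, with points for the 3 libraries of a group, dashes for the mean and bars for the SD. LE+IFNy (red) stands above PE+IFNy (blue) for Irf4, Cxcl2, Acod1, Gbp2 and Mki67 and below it for H2-Aa, Creld2, Scd2 and Lcn2, and the groups without IFN-γ are on the left of each panel.

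Without IFN-γ few genes were called between the same peptides. Few calls do not show that few genes differed, because intervals were wide for some genes, such as Nos2, Cxcl10 and Mmp9 below. Of 12420 genes tested between LE and PE, edgeR called 3 (0.0242%), 2 higher (0.0161%) and 1 lower (0.00805%), and 1383 had an unadjusted p under 0.05. DESeq2 called 19, and without any 1 replicate number edgeR called 0. Lcn2, an iron-sequestering acute-phase protein, was at 35.6, 33.4 and 38.2 CPM in LE and 17.8, 18.8 and 18.3 CPM in PE (0.92 ± 0.13, adjusted p = 0.0199). Igf2bp3, an mRNA-binding protein gene named after its values were seen, was at 5.26, 5.13 and 4.24 CPM against 2.06, 2.33 and 2.06 CPM (1.14 ± 0.18, adjusted p = 0.0468), and Rgs2, a regulator of G-protein signalling, at 38.3, 42.5 and 43.4 CPM against 60.4, 65.3 and 59.3 CPM (−0.61 ± 0.088, adjusted p = 0.0199). With IFN-γ, both Lcn2 and Rgs2 were called in the other direction: Lcn2 was lower with 65-79*LE (97.5, 98.7 and 78.7 CPM against 148, 161 and 174 CPM, −0.82 ± 0.093, adjusted p = 8.1e-07, and −0.47 and not called with the offsets) and Rgs2 higher (99.1, 104 and 120.4 CPM against 63.5, 62.7 and 59.8 CPM, 0.78 ± 0.087, adjusted p = 6.62e-07).

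The change of the LE to PE difference with IFN-γ was tested directly, in a fit of all 24 letter-named libraries. Of 13096 genes, 1725 (13.2%) were called, with 962 (7.35%) changes towards a higher and 763 (5.83%) towards a lower value in LE. The change was 2.77 ± 0.19, adjusted p = 5.12e-10 for Cxcr4, whose LE to PE difference without IFN-γ was −0.27 (95% interval −0.60 to 0.06). For Myc it was 2.44 ± 0.44, adjusted p = 0.000199 and for Gadd45b 2.43 ± 0.16, adjusted p = 5.08e-10, and for Pi16 −2.46 ± 0.21, adjusted p = 2.35e-08. The change was not called for Nos2 (0.49 ± 0.52, adjusted p = 0.519), Cxcl10 (0.64 ± 0.57, adjusted p = 0.435) or Mmp9 (0.10 ± 0.31, adjusted p = 0.844), whose differences without IFN-γ were 0.70 (−0.36 to 1.77), 1.02 (−0.10 to 2.15) and 1.19 (0.66 to 1.72). For these genes a change with IFN-γ was not shown. By list, 24 of 38 replication genes, 30 of 47 mitosis genes and 9 of 15 chemokine genes changed upwards, and 12 of 23 ER chaperone and 10 of 23 cholesterol genes downwards. In the MHC class II list 1 of 10 genes, Cd74, changed downwards, the median change was 0.12, and the 6 members tested without IFN-γ had a median LE to PE difference of −0.56, so a change of this list with IFN-γ was not shown.

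**Figure D5:**
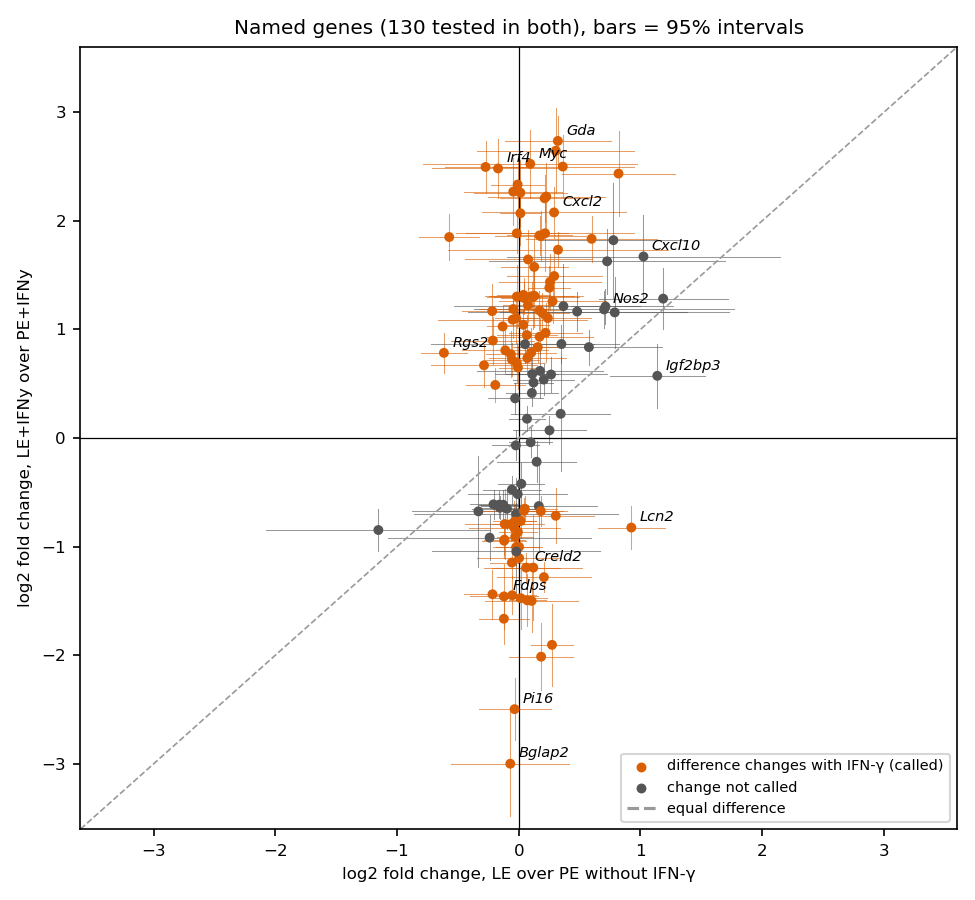
Log2 fold change of LE over PE without IFN-γ (x axis) and with it (y axis) for the 130 named genes tested in both, with 95% intervals, in orange where the change between the conditions was called. On the x axis 115 of the 130 points lie within 0.5 of 0, and Lcn2 and Rgs2 lie in opposite quadrants.

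Leaving out a single one of the 6 libraries gave between 2366 and 2938 calls for LE+IFNy against PE+IFNy, with the lowest count without PE+IFNy replicate 3. In the HLA-named libraries labelled LE+IFNy and PE+IFNy, 32 of the 36 gene lists had no called member with edgeR, and the calls in the others were Cxcl2, Ccl3, Ccl4 and Ccl5 and the osteoclast genes Acp5 and Dcstamp, all higher, and Ciita, of the IFN-γ and MHC class II lists, lower.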

How the data were processed

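RNA of RAW264.7 cells was sequenced by the authors as stranded, poly(A)-selected, single-end libraries. The deposited values are raw counts per gene, made with featureCounts on GENCODE M12 and GRCm38.p5 from uniquely aligned reads. The aligner is not given in the sources used here. Groups follow GEO's titles. The study describes its samples as biological replicates from independent experiments, and the labels do not say which library belongs to which experiment, so p-values measure the spread between these libraries.

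edgeR 4.0.16 in R 4.3.3 (filterByExpr, TMM, glmQLFit and glmQLFTest) was fitted to the 12 letter-named libraries of the 4 IFN-γ groups, to the 12 without IFN-γ and to all 24. A gene was called at an adjusted p under 0.05 and a fold change over 1.5. CPM values were scaled to each library's total. Errors are SE from the fit, and n = 3 per group. Tests were also run on simulated counts, which held no length or GC trend, so that run does not cover such a trend. Alternatives included DESeq2 1.42.0.

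Genes named were drawn from the 12 largest changes each way among called, non-overlapping genes of at least 10 CPM, up to 4 members per list of at least 5 CPM, the study's genes, and the 5 largest changes each way with IFN-γ. Not all genes that this rule selected are named. A further 37 genes, mostly where few members of a list were called, were named after their values were seen. The comparison and the lists were chosen with earlier results of these data known. Gene models came from GENCODE M21 (GRCm38), with 98.7% of tested genes matched. Some items are not reported here. A pairing of libraries by replicate number was not shown between LE+IFNy and PE+IFNy and was not checked without IFN-γ.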

Additional observations from a re-analysis of the deposited data

Results flagged for a closer look

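The LE to PE difference changed with IFN-γ for 1725 genes by the interaction test in edgeR, and for 92 of the 142 genes named in the text. Values below are the log2 change of the LE to PE difference between cells with and without IFN-γ, where a positive value means that LE stood higher against PE once IFN-γ was present. Among the genes with the largest differences they were Gda (2.42), Arrdc3 (2.36), Myc (2.44), Acod1 (2.14), Cxcr4 (2.77), Irf4 (2.67), Dmpk (1.61), Xylt1 (2.35), Egr1 (2.32), F10 (2.25), Gpcpd1 (2.01) and Dusp1 (2.004), and, downwards, Bglap2 (−2.92), Pi16 (−2.46), Cdsn (−2.19), Avil (−2.17), Avpi1 (−1.54), Cyb561 (−1.60), Fkbp11 (−1.56), Car6 (−1.49), Fdps (−1.33), Kbtbd11 (−1.39) and Klrg2 (−1.22). Chemokine, cytokine and receptor genes gave Cxcl2 (1.79), Cxcl11 (3.12), Ccl5 (1.14), Ccrl2 (1.91), Il1rn (2.06), Tnf (0.77), Tnfrsf9 (1.67), Odc1 (1.17) and Spr (−0.98). Signalling genes gave Nfkbiz (1.58), Tnfaip3 (1.21), Rel (0.76), Nfkbie (−0.67), Traf1 (0.96), Pim1 (1.70), Jak1 (1.01), Atf3 (1.12), Plk2 (1.69) and Gadd45b (2.43). Interferon-related genes gave Gbp2 (1.42), Cd274 (1.15), Rsad2 (1.25), Irf7 (0.96), Cd74 (−0.69), Tlr9 (0.92) and Serpina3g (5.30). For Serpina3g and Cxcl11, libraries without IFN-γ held 3 counts or fewer, so their fitted changes depend on the prior count and are no bound. Proliferation genes gave Lig1 (1.20), Pola1 (0.99), Mcm4 (0.87), Bub1 (1.45), Kif15 (1.18), Mki67 (1.32) and Ttk (1.19). ER and lipid genes gave Creld2 (−1.25), Sdf2l1 (−1.08), Manf (−0.82), Dnajb11 (−0.87), Calr (−0.85), Mvd (−0.998), Scd2 (−1.48), Scd1 (−1.10), Elovl6 (−1.01), Acss2 (0.84), Nr1h3 (1.39) and Lpcat3 (−0.77). Phagocyte and osteoclast genes gave Itgax (1.19), C3 (1.23), Itgam (1.01), Cybb (1.13), Car2 (1.14), Atp6v0d2 (0.89) and Lrp1 (0.72). Lcn2 and Rgs2, which were called in opposite directions with and without IFN-γ, gave Lcn2 (−1.74) and Rgs2 (1.41). Among genes named after their values were seen, the changes were Ccl4 (0.69), Klf2 (−0.78), Tnfrsf1b (0.69), Tnfrsf26 (0.69), Tnfsf9 (−0.71), Hist1h1c (−0.81), Psmb5 (−0.73), Atp5g1 (−0.72), Apoe (−1.31), Acsl3 (0.66), Fasn (−0.85), Bcl2l11 (0.78), Hk2 (0.67), Adgre1 (1.25) and Ccl3 (1.28).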

How the results depend on the processing

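The count of genes called between LE+IFNy and PE+IFNy, 2752, stayed within 1.5 times under other scaling, DESeq2, no filter, protein-coding genes, the 6 libraries alone, all 24 libraries and the length and GC offsets. It was 7621 by adjusted p alone, 899 above 2-fold, 19 in the HLA-named libraries and 374 over all 6 replicates with the kind of label as a block. Leaving out replicates gave 2138 to 3028. A replicate block gave 2760 calls for the main comparison, 1771 for the change with IFN-γ and 18 for LE against PE without IFN-γ. Same-numbered LE+IFNy and PE+IFNy libraries deviated together with correlations of −0.02 to 0.17, and 2 of 6 libraries correlated best with their own number. A pairing by number was thus not shown between these groups. Over the 4 IFN-γ groups, same-numbered pairs gave −0.17 to 0.26 and other pairs −0.34 to 0.28. The groups without IFN-γ were not checked, and there the replicate block took the genes at an unadjusted p under 0.05 from 1383 to 1964. For LE against PE without IFN-γ (3 calls), DESeq2's test gave 19, no filter 55, the offsets with the replicate block 21, the 6 libraries alone 1, adjusted p alone 5, a 2-fold limit 1, the HLA-named libraries 215 and all 6 replicates 0 (542 at an unadjusted p under 0.05); leaving out any replicate number gave 0 (461, 1401 and 1148 under the same unadjusted limit). The change with IFN-γ (1725 calls) was 3726 by adjusted p alone, 574 above 2-fold, 33 in the HLA-named libraries and 0 over all 6 replicates (1023 at an unadjusted p under 0.05), and 1130 to 1568 without 1 replicate number, lowest without replicate 3. The HLA-named libraries labelled LE (7.06 to 7.10) and PE (6.93 to 7.04) carried the IFN-γ response. For LE against PE and for the change, counts that include these libraries therefore do not describe cells without IFN-γ. The cause was not tested, and for the HLA-named libraries the labels are in doubt.

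Of the 142 named genes, 113 kept their direction and side of the limits with the length and GC offsets, 23 lost the call, 5 gained it and 1 reversed (Ifi44 −0.25, and with the replicate block Ifi44 −0.25). Among the alternatives on letter-named libraries without offsets, the only reversal was that of Nfatc1, which was not called, at 0.0035 without LE+IFNy replicate 2 and down to −0.071 without others. In the HLA-named libraries alone 67 reversed, with log2 fold changes of Gda −0.57, Acod1 −0.47, Irf4 −0.093, Xylt1 −0.055, F10 −0.66, Bglap2 0.15, Cyb561 0.24, Car6 0.12, Klrg2 0.21, Nos2 −0.25, Rel −0.16, Jak1 −0.068, Socs3 −0.12, Gbp2 −0.26, Cd274 −0.055, Irf7 −0.21, Zbp1 −0.44, Ifi44 −0.12, H2-Aa 0.28, H2-Ab1 0.052, H2-Eb1 0.15, Kif15 −0.033, Mki67 −0.20, Ttk −0.014, Manf 0.095, Calr 0.037, Hspa5 0.19, Ddit3 0.15, Ern1 −0.20, Dnajb9 −0.043, Acss2 −0.26, Abca1 −0.46, Nr1h3 −0.38, C3 −0.42, Itgam −0.038, C1qa −0.32, Cybb −0.21, Car2 −0.069, Mmp9 −0.022, Ripk1 −0.0036, Mlkl −0.27, Lrp1 −0.45, Tlr9 −0.41, Lcn2 1.19, Igf2bp3 −0.011, Serpina3g −0.50, Klf2 0.14, Nr4a1 0.90, Ier2 0.24, Insig1 −0.16, Gbp3 −0.18, Gbp5 −0.67, Gbp7 −0.38, H2-Ob 1.34, Tnfrsf1b −0.26, Tnfrsf4 0.012, Tnfsf9 0.071, Psmb5 0.051, Uqcrq 0.082, Atp5g1 0.045, Apoe 0.23, Acsl3 −0.031, Bcl2l11 −0.0026, Pfkfb3 −0.20, Hk2 −0.073, Mad2l1 0.089 and Hist1h4i −0.18. Of these Lcn2 and C3 had an adjusted p under 0.05 there. Whether the HLA-named groups hold the peptides that their labels give was not tested. Over all 6 replicates 16 reversed: Gbp2 −0.027, Zbp1 −0.18, Ifi44 −0.044, H2-Aa 0.20, H2-Eb1 0.089, C3 −0.055, C1qa −0.072, Tlr9 −0.0034, Lcn2 0.68, Serpina3g −0.036, Nr4a1 0.12, Gbp5 −0.32, Gbp7 −0.027, H2-Ob 0.44, Mad2l1 0.011 and Hist1h4i −0.036. Depth limits genes of few counts such as Il1b, at 1.15 CPM or less in all 6 libraries, with an SE of 0.48.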
